A study of Mus musculus with 8 samples.

Results

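Eomes, Gzmb, Prf1, Fasl, Nkg7, Crtam, Ccl3, Ccl4, Ccl5 and Xcl1 encode effectors of lymphocyte killing and chemokines that activated T cells and natural killer (NK) cells release. They were read from every probe set (a group of short probes for 1 transcript) whose platform annotation gives that 1 symbol. There were 13 such probe sets of 45037, for 10 of 18193 genes. TGF-b signals in part through Smad2 and Smad3, and the study measured naive CD4 T cells of 4 genotypes, each stimulated without and with TGF-b, on 8 single-colour Affymetrix arrays. All mice were labelled C57BL/6J. Wild-type (WT) mice were compared with mice whose Smad2 was deleted conditionally in T cells (Smad2del/del, called Smad2KO), with Smad3-/- mice (Smad3KO), and with Smad2del/del Smad3+/- mice, which keep 1 Smad3 allele and stood in for cells lacking both genes. Naive cells from the spleen (CD62L high, CD44 low and without CD25, over 98% pure) were cultured for 24 h in every group on plates coated with 1 ug/ml anti-CD3e. The medium held 10 ng/ml IL-2, 1 ug/ml anti-CD28, and anti-IFN-g and anti-IL-4, both at 10 ug/ml. TGF-b, where added, was at 2 ng/ml. The sources used here do not give the Cre driver, the age of the mice or how many were pooled. There was 1 array per genotype and treatment, so a p-value reflects only how these cultures differ among themselves, and where the 3 genotypes are averaged that spread includes any difference between genotypes.

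Cytotoxic lymphocytes kill a target cell either by releasing granules that hold perforin (Prf1) and granzymes such as granzyme B (Gzmb), or through Fas ligand (Fasl), which engages the death receptor Fas. Eomes is a T-box transcription factor of cytotoxic lymphocytes, Nkg7 is a membrane protein of cytotoxic granules, and Crtam is a surface receptor that appears on activated T cells and binds Cadm1. Ccl3, Ccl4 and Ccl5 are inflammatory chemokines, and Xcl1 (lymphotactin) attracts dendritic cells that carry Xcr1. TGF-b is known as a restraint on effector and cytotoxic genes in T cells.

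Signals are linear probe set intensities, brought to a common 2% trimmed mean. The median of all scaled signals on the WT, Smad2KO and Smad3KO arrays, 32.5, was used as a floor, and a signal was called bright at 65.0, which is 2 times the floor, or above. Signals under the floor have no order. In comparisons they stand at the floor, and a fold against one is given as "at least". The 6 arrays of WT, Smad2KO and Smad3KO had Spearman correlations of 0.907 to 0.928 with each other and 39.3% to 40.7% bright probe sets. They differed in the scaled signal of the 18S ribosomal RNA control (5′ probe set). It read 3147 without and 70.7 with TGF-b in WT, 35.0 and 123 in Smad2KO, and 2544 and 997 in Smad3KO. The part of this difference in the results was not tested. Both Smad2del/del Smad3+/- arrays stood apart, at 0.659 to 0.693 against the 6 and with 62.2% and 62.8% bright. The scaled signals of CD8 T cell markers on these arrays summed to 1232 without and 1582 with TGF-b, against 68.2 to 161 on the 6, and those of myeloid markers to 3043 and 2553, against 144 to 260.1. Values of that genotype are therefore given separately, and tests used the 6 arrays. On the 6, all 6 measured CD4 T cell markers were bright, 5 of 5 B cell markers lay under the floor, and 0 of 5 NK cell markers were bright. The NK cell markers Ncr1, Klra8, Klre1 and Klrc2, were under the floor on all 6, and Klrd1 ranged from 1.1 to 65.0. The summed NK cell marker signal was 12.4 to 41.1 without and 44.8 to 107 with TGF-b, but it adds signals under the floor, which have no order. The CD8 markers reached at most 94.0 (Cd8a) and 92.9 (Cd8b1). Their summed signal was lower with TGF-b in each pair, from 161 to 108 in WT, from 144 to 132 in Smad2KO and from 83.5 to 68.2 in Smad3KO. Of the 2 markers, Cd8a was lower in each pair. Cd8b1 was higher with TGF-b in WT (66.8 to 70.5) and Smad3KO (38.4 to 55.0) and lower in Smad2KO (92.9 to 86.2). The summed myeloid marker signal was also lower with TGF-b, at 194 to 260.1 without and 144 to 189.8 with it. Of the 7 myeloid markers, Csf1r (up to 122) and Cd68 (up to 68.2) were bright on at least 1 of the 6, and Lyz2, Itgam, Cd14 and Fcgr3 were under the floor on all 6. The CD8 and myeloid sums moved in the direction of the members that were lower with TGF-b, though Cd8b1 did not in WT and Smad3KO. Nor did the myeloid marker Cd68 in WT, where it read 46.4 without and 62.8 with TGF-b. Both sums also add signals under the floor. The part of these cells in the results was not tested. The Smad2 and Smad3 probe sets could not be placed relative to the deletions here, so they check nothing about the labels.

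The promoters shown are those of Gzmb, which in WT, Smad2KO and Smad3KO was bright only without TGF-b, and of Nkg7 and Xcl1, the members with higher signals with TGF-b. Each is the 250 bases before the start of the gene in RefSeq on build GRCm38.p6, read 5′ to 3′ on the strand of the gene. They come from chr14:56262335-56262584 on the minus strand (Gzmb), chr7:43436888-43437137 on the plus strand (Nkg7) and chr1:164935523-164935772 on the minus strand (Xcl1). Capitals mark matches to any of the motifs searched on both strands.
Gzmb: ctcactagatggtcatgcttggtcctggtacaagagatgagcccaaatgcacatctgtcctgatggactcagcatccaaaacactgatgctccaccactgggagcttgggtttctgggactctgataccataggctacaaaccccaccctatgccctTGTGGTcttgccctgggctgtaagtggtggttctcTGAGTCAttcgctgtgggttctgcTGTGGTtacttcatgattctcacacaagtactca
Nkg7: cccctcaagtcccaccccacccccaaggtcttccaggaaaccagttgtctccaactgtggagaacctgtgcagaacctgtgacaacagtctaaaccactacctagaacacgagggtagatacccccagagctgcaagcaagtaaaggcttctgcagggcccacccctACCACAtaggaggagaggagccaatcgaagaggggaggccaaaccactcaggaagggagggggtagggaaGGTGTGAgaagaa
Xcl1: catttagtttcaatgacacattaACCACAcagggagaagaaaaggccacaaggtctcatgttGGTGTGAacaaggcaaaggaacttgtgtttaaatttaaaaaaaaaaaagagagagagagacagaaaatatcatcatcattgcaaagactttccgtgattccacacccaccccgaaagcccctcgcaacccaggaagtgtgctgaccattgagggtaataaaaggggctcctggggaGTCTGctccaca
Of the 10 members, 7 matched the RefSeq promoter table, and Crtam, Ccl4 and Ccl5 did not. The T-box letters GGTGTGA were in the windows of Nkg7 (beginning 13 bases before the start) and Xcl1 (188 bases before). They occur in 3.33% of 32851 promoter windows of this length. The Runx letters TGTGGT were in 5 of the 7 windows, those of Gzmb, Prf1, Nkg7, Ccl3 and Xcl1, against 14.0% of all windows. The AP-1 letters TGANTCA occurred in Gzmb only among the 7, 58 bases before the start, against 6.75% of all. The Smad box CAGAC occurred in Xcl1 only among the 7, 12 bases before the start, in its reverse complement, against 42.2% of all. The NFAT letters GGAAAA were in Fasl and Ccl3, against 20.4% of all, and the NF-kB letters GGANTTNCC in none, against 3.15%. No motif searched matched in the Eomes window. None of these searched motifs overlapped another in the printed windows.

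Across the 3 genotypes, TGF-b culture went with lower signals of Eomes, Gzmb, Crtam, Ccl4 and, on 1 of its 2 probe sets, Fasl, and with higher signals of Nkg7 and Xcl1. The mean TGF-b response is the mean of the log2 ratios (with over without TGF-b) in WT, Smad2KO and Smad3KO, tested with limma over all 20149 probe sets that were bright on at least 1 of the 6 arrays. Of the 13 member probe sets, 10 (8 genes) passed that filter. Of these, 6 probe sets (5 genes) were lower, 2 were higher and 2 were not past the threshold at an adjusted p under 0.05. Over all tested probe sets 3.49% were lower and 5.93% higher. With arrays centred on their medians instead, the calls over all probe sets were 991 lower and 1049 higher, against 704 and 1194. The median response of the 10 was -0.93 on the log2 scale, against 0.000347 over all tested. Both Eomes probe sets and that of Gzmb, counted among the 6 lower, passed the filter only through their arrays without TGF-b. They had to be lower, so their calls are no support for a fall. The median response of the 10 includes these probe sets, so it is no support for a fall either. Where groups of arrays are said below not to overlap, the share of all tested probe sets without overlap was not counted. Such statements only describe the signals. In bulk RNA, fewer cells expressing a gene and less RNA per cell cannot be told apart.

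**Figure D1:**
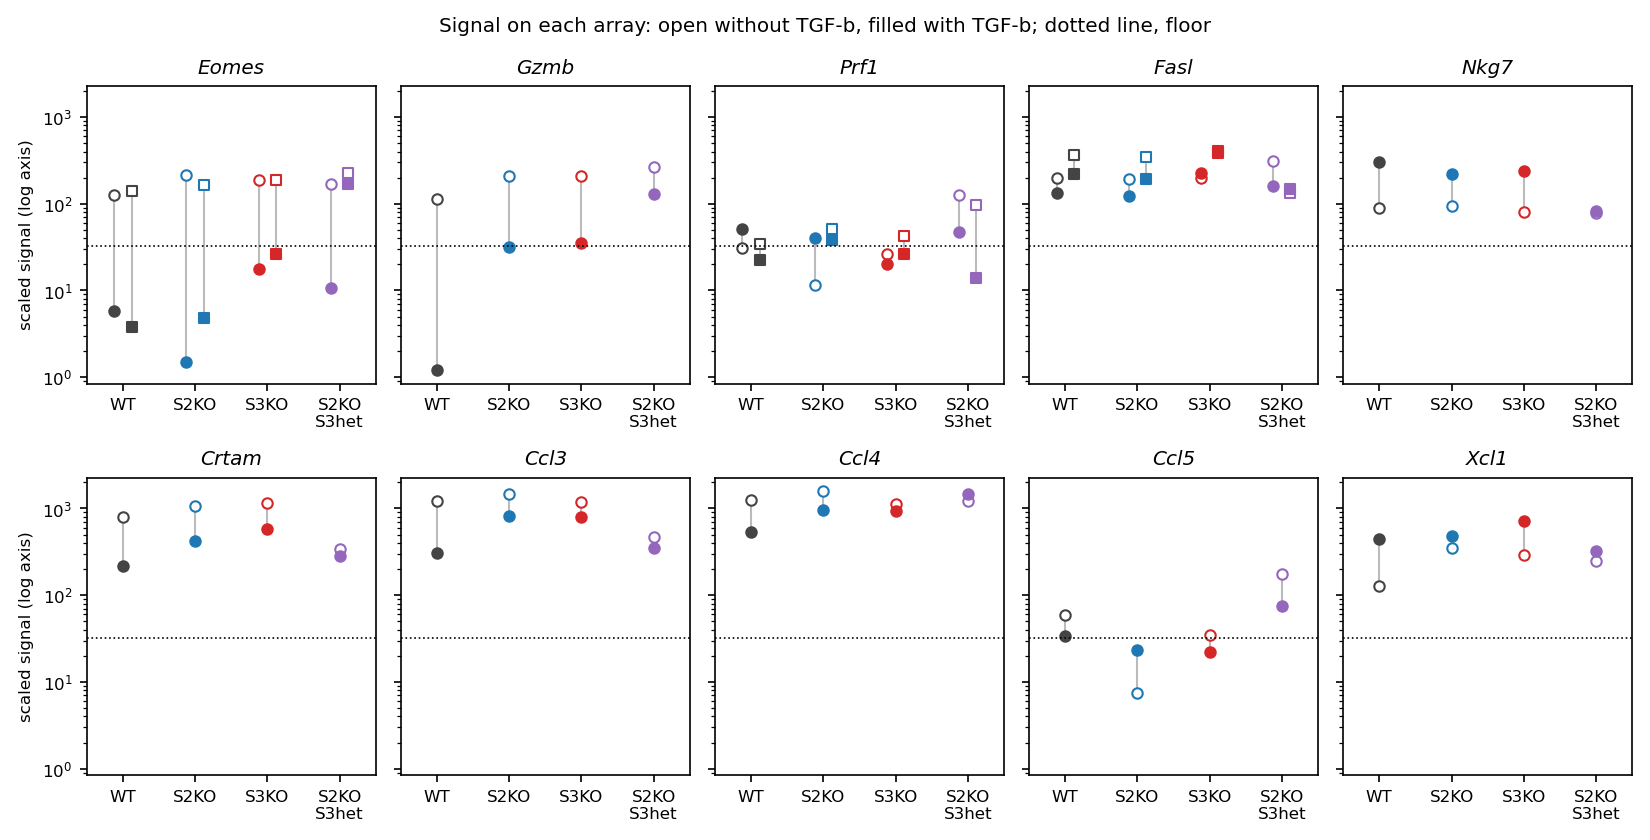
Scaled signal of each member on every array (log axis), open symbols without and filled with TGF-b, grey lines joining the 2 arrays of a genotype; squares are the second probe set of Eomes, Prf1 and Fasl, S2KO and S3KO are Smad2KO and Smad3KO, S2KO S3het is Smad2del/del Smad3+/-, and the dotted line is the floor of 32.5. Eomes and Gzmb sit above 65.0 without TGF-b and near or under the floor with it on the 6 arrays, and Nkg7 and Xcl1 are the members whose filled symbols lie above the open ones in WT, Smad2KO and Smad3KO alike.

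Eomes was measurable without TGF-b and fell under the floor with it in all 3 genotypes. On probe set 1426001_at its signal without TGF-b was 126.9 in WT, 215.0 in Smad2KO and 188.6 in Smad3KO. With TGF-b it was 5.84, 1.51 and 17.9. Each array with TGF-b was under the floor. Eomes was thus at least 3.90-fold lower in WT, at least 6.61-fold lower in Smad2KO and at least 5.80-fold lower in Smad3KO. The second probe set, 1435172_at, read 140.0 in WT, 162.8 in Smad2KO and 187 in Smad3KO without TGF-b, and 3.77, 4.81 and 26.0 with it. Both probe sets showed the same pattern. The mean log2 response was -2.41 or lower on the first (SE 0.234, limma adjusted p = 0.000117) and -2.32 or lower on the second (SE 0.223, limma adjusted p = 0.000114). The filter had fixed a fall in advance, so these p-values are no support for it. All signals with TGF-b stand at the floor, so the SE takes no spread from those arrays. Because the signals with TGF-b stand at the floor, the order of these bounds between genotypes is the order of the levels without TGF-b and no order of responses.

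Gzmb followed the same course. Its signal (1419060_at) without TGF-b was 113.7 in WT, 209.9 in Smad2KO and 206 in Smad3KO. With TGF-b it was 1.21 in WT, 31.8 in Smad2KO and 35.0 in Smad3KO, so the last alone stayed above the floor. Gzmb was at least 3.50-fold lower in WT, at least 6.46-fold lower in Smad2KO and 5.89-fold lower in Smad3KO. Its mean log2 response was -2.35 or lower (SE 0.243, limma adjusted p = 0.000179). As for Eomes, the filter had fixed a fall in advance, so this p-value is no support for it. The other granzymes gave no comparison, since 0 of 9 such genes were tested. Their brightest signal on the 6 arrays was 44.8, for Gzmm, and Gzmb is the 1 granzyme gene with a bright signal there. Gzmn, Gzmf and Gzmc, which neighbour Gzmb on chromosome 14, were among those under the floor on all 6 arrays.

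Perforin was too dim for the test. On probe set 1450335_at Prf1 read 30.7 without and 50.6 with TGF-b in WT, 11.7 and 39.8 in Smad2KO, and 26.6 and 20.0 in Smad3KO. On 1451862_a_at it went from 34.3 to 22.2 in WT, from 51.6 to 38.2 in Smad2KO and from 43.0 to 26.6 in Smad3KO. None of these 12 signals reached 65.0, and neither probe set entered the test. With no filter on dim probe sets their mean log2 responses were 0.31 (limma adjusted p = 0.349) and -0.30 (limma adjusted p = 0.297), so the 2 differed in sign and neither passed.

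Nkg7 moved opposite to Gzmb, although both belong to cytotoxic granules. Its signal (1450753_at) rose from 88.4 to 302 in WT, from 93.2 to 219.6 in Smad2KO and from 79.9 to 236 in Smad3KO. The lowest array with TGF-b was above the highest without. The rise was 3.42-fold in WT, 2.36-fold in Smad2KO and 2.95-fold in Smad3KO, with a mean log2 response of 1.52 (SE 0.167, limma adjusted p = 0.000278). Of the measured NK cell markers, Klrd1 alone exceeded the floor, at 64.99 in WT and 38.0 in Smad2KO with TGF-b, and none was bright. The part of NK cells in the Nkg7 result was not tested.

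Fas ligand fell on 1 probe set of 2, and by little. On 1449235_at the signal went from 364 to 223 in WT, from 349 to 191 in Smad2KO and from 409.9 to 382 in Smad3KO. The mean log2 response was -0.56 (SE 0.152, limma adjusted p = 0.0465), and the Smad3KO array with TGF-b was above the WT and Smad2KO arrays without it. The call rested on single pairs of arrays, being lost without the WT pair (limma adjusted p = 0.213) and without the Smad2KO pair (limma adjusted p = 0.329). On 1418803_a_at Fasl went from 196 to 134 in WT, from 192 to 122 in Smad2KO and from 197 to 225.5 in Smad3KO. The 2 probe sets shared the direction in WT and Smad2KO, at log2 ratios of -0.71 and -0.87 on the first and -0.55 and -0.66 on the second. In Smad3KO the ratios were -0.10 and 0.19. The second probe set was not past the threshold (mean -0.34, SE 0.184, limma adjusted p = 0.289).

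Crtam fell in WT, Smad2KO and Smad3KO while staying well above the floor on every array. Its signal (1449903_at) went from 801 to 219.9 in WT, from 1056 to 422 in Smad2KO and from 1169 to 586 in Smad3KO. The groups with and without TGF-b did not overlap. The fall was 3.64-fold in WT, 2.50-fold in Smad2KO and 2.00-fold in Smad3KO, and the last missed the 2-fold line at a log2 ratio of -0.997. The mean log2 response was -1.39 (SE 0.150, limma adjusted p = 0.000614). Cadm1, which encodes the ligand of Crtam, was under the floor on all 6 arrays.

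Ccl3 and Ccl4, adjacent coding genes on chromosome 11, were both bright on every array and had lower signals with TGF-b in WT, Smad2KO and Smad3KO, by unequal amounts. The Ccl3 signal (1419561_at) went from 1219 to 308 in WT, from 1464 to 820.4 in Smad2KO and from 1200.5 to 795 in Smad3KO. These are differences of 3.96-fold, 1.78-fold and 1.51-fold, with no overlap between the groups. With so wide a spread the mean log2 response of -1.14 was not past the threshold (SE 0.334, limma adjusted p = 0.165). Without the WT pair it was -0.71 and past it (limma adjusted p = 0.00287). The Ccl4 signal (1421578_at) went from 1237 to 529.9 in WT, from 1589.6 to 971 in Smad2KO and from 1115 to 937 in Smad3KO. The falls were 2.33-fold, 1.64-fold and 1.19-fold, and each array with TGF-b was below each array without it. The mean log2 response of Ccl4 was -0.73 (SE 0.171, limma adjusted p = 0.0470). That call was lost without the WT pair (mean -0.48, limma adjusted p = 0.0505) and without the Smad2KO pair (mean -0.74, limma adjusted p = 0.186).

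Ccl5, which lies on the same chromosome with Ccl9 and Ccl6 as the 2 coding genes between it and Ccl3, was dim. It read 58.8 without and 33.6 with TGF-b in WT, 7.55 and 23.4 in Smad2KO, and 34.4 and 22.0 in Smad3KO (1418126_at). None of these signals was bright, so Ccl5 was not in the test, and with no filter its mean of -0.30 did not pass (limma adjusted p = 0.460). Ccl9 and Ccl6 did not exceed 52.5 and 25.1.

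Xcl1 was the chemokine among the members with higher signals with TGF-b. Its signal (1419412_at) went from 127 to 442 in WT, from 348 to 478 in Smad2KO and from 292 to 718 in Smad3KO. All 3 arrays with TGF-b were above all 3 without, and the rise was 3.48-fold, 1.37-fold and 2.46-fold. The WT signal without TGF-b was the lowest of the 6. The mean log2 response was 1.18 (SE 0.240, limma adjusted p = 0.0297), and the call was lost without the Smad3KO pair (mean 1.13, limma adjusted p = 0.226). Of 14 alternative settings, the call held in 8 for Xcl1, 6 for Ccl4 and 5 for Fasl, against 12 for Crtam and 13 for Nkg7. The receptor genes Xcr1 and Ccr1 were under the floor on all 6 arrays.

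**Figure D2:**
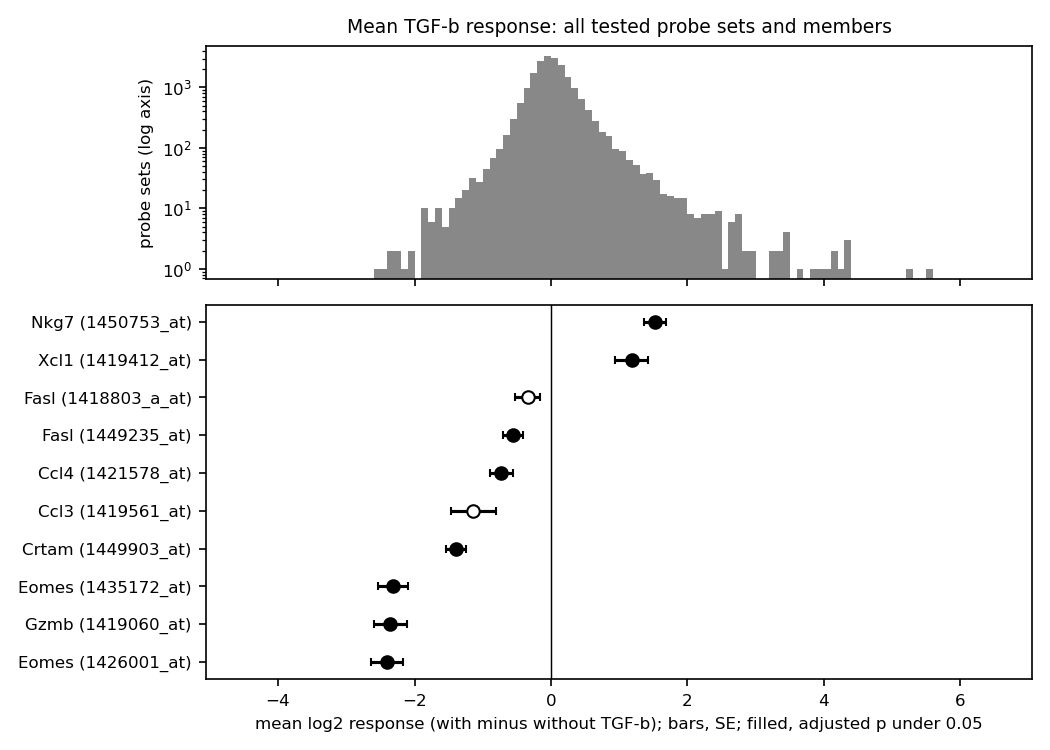
Top, number of tested probe sets (log axis) by mean log2 response to TGF-b over WT, Smad2KO and Smad3KO; bottom, the 10 tested member probe sets on the same axis, with SE bars and filled points at a limma adjusted p under 0.05. Eomes and Gzmb, at -2.41 to -2.32, lie on the lower side, and Nkg7 (1.52) and Xcl1 (1.18) on the upper side. The filter had fixed the falls of Eomes and Gzmb in advance.

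The comparison of genotypes asked whether loss of Smad2 or Smad3 went with other levels or other responses of these genes. Within a genotype there are 2 arrays and no replicate check, so ratios are described. In WT, 6 member probe sets were 2-fold or more lower and 2 higher, where 3.02% and 4.64% of all probe sets bright on at least 1 array were. In Smad2KO, 4 were lower and 1 higher (1.54% and 3.64% of all), and in Smad3KO 3 were lower and 2 higher (0.785% and 2.10% of all). The spread of log2 ratios over all probe sets bright on both arrays narrowed in the same order, with a robust SD that was 0.342 for WT, 0.281 for Smad2KO and 0.216 for Smad3KO. Of the 7 probe sets bright on every array, those of Nkg7, Crtam, Ccl3, Ccl4 and Xcl1 had their largest ratio in WT, and the 2 of Fasl had theirs in Smad2KO.

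Differences between responses did not pass the test. For the WT response minus the mean of the Smad2KO and Smad3KO responses, 0 of 10 member probe sets passed with limma, and 1 had an unadjusted p under 0.05. Over all probe sets 0 of 20104 passed and 1362 had an unadjusted p under 0.05. Ccl3 was that member, with a response lower by a log2 difference of -1.27 in WT (SE 0.379, limma adjusted p = 0.719). For Ccl4 the difference was -0.74 (SE 0.413, adjusted p = 0.776), for Crtam -0.71 (SE 0.389, adjusted p = 0.774), and for Xcl1 0.92 (SE 0.577, adjusted p = 0.788). For the Smad3KO response minus the mean of the WT and Smad2KO responses, 0 of 10 member probe sets and 0 of 20142 in all passed with limma. At an unadjusted p under 0.05 there were 1 and 901. The member was Fasl on 1418803_a_at, at a difference of 0.80 (SE 0.263, limma adjusted p = 0.946). The other Fasl probe set gave 0.68 (SE 0.342, adjusted p = 0.946). These fits have 1 residual degree of freedom before moderation, and a p that misses the threshold does not show that the genotypes responded alike.

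**Figure D3:**
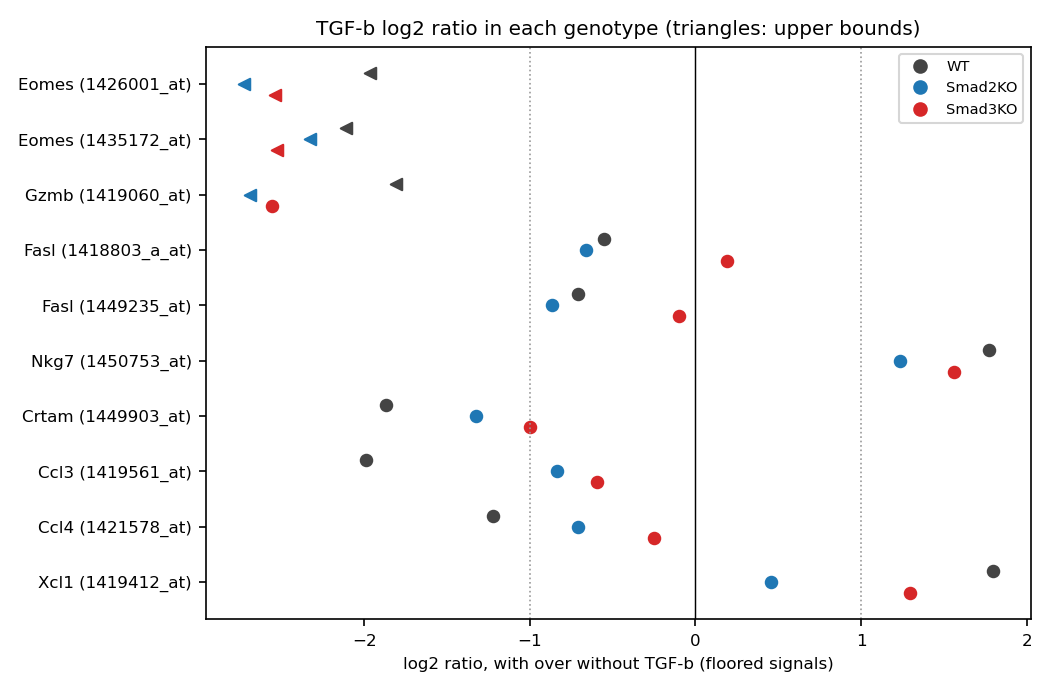
TGF-b log2 ratio of the 10 tested member probe sets in WT (grey), Smad2KO (blue) and Smad3KO (red), from 1 array with and 1 without TGF-b each; triangles are upper bounds, where the array with TGF-b was under the floor, and dotted lines mark 2-fold. For Crtam, Ccl3 and Ccl4 the ratio is lowest in WT (-1.86, -1.99 and -1.22) and highest in Smad3KO (-0.997, -0.59 and -0.25).

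Levels over both treatments also gave no call. Against WT, 0 of 10 member probe sets passed in Smad2KO with limma, where 0.546% of all were called higher and 0.412% lower. At an unadjusted p under 0.05 there were 3 members, and 1974 of all 20149 probe sets. In Smad3KO, 0 of 10 passed, where 0.159% were called higher and 0.213% lower. There, 3 members and 2076 of all 20149 had an unadjusted p under 0.05. Crtam came nearest in both, at a log2 difference of 0.67 in Smad2KO (SE 0.183, limma adjusted p = 0.201) and 0.98 in Smad3KO (SE 0.183, limma adjusted p = 0.0777). The Smad3KO difference of Crtam passed with the floor at the 25th percentile (limma adjusted p = 0.0103). Each Crtam signal of Smad2KO and Smad3KO was above the WT signal of the same treatment. Xcl1 was at 0.78 in Smad2KO (adjusted p = 0.442) and 0.95 in Smad3KO (adjusted p = 0.342). For Gzmb the floor matters: the Smad3KO difference was 0.48 (limma adjusted p = 0.628) with the floor at the median and 1.57 (limma adjusted p = 0.0423) with it at the 25th percentile.

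In Smad2del/del Smad3+/- cells, where the arrays stood apart, 5 of 13 member probe sets were 2-fold or more lower and 0 higher, against 13.0% and 14.4% of all. Eomes read 170.0 without and 10.8 with TGF-b on 1426001_at but 226 and 171 on 1435172_at, so its 2 probe sets disagreed. Gzmb went from 268 to 129.8, a 2.07-fold difference in which both signals stayed bright. Prf1, dim on the other 6 arrays, read 125.5 and 47.0 on one probe set and 96.5 and 14.0 on the other. Ccl5 was bright here too, at 174 without and 76.0 with TGF-b. Nkg7 read 78.9 and 82.0, Xcl1 249 and 324, and Crtam 345 and 281, each less than 2-fold apart. Ccl3 read 471 and 352, and Ccl4 1215 and 1468. Fasl read 312 and 159 on 1418803_a_at and 132 and 146 on 1449235_at. The summed NK cell marker signal on these arrays was 385 without and 739 with TGF-b, and the part of other cells in these levels was not tested. With these arrays included and levels set by all 8, 0 of 12 tested member probe sets passed the mean response test with limma and 7 had an unadjusted p under 0.05. With all 8, the share of all probe sets at that unadjusted p was not counted. Eomes was then at -1.81 (adjusted p = 0.0618), Gzmb at -1.61 (adjusted p = 0.109) and Nkg7 at 1.16 (adjusted p = 0.274).

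Other genes of the same processes were read from lists, 1 probe set per gene. Of 21 other genes of the cytotoxic granule and its release, 12 were tested, of which 2 were higher and 4 lower, with a median log2 response of 0.09. The lower ones included protease inhibitors. Serpinb9, an inhibitor of granzyme B, went from 303 to 76.0 in WT, from 428 to 84.0 in Smad2KO and from 416 to 121 in Smad3KO (mean -2.04, SE 0.156, limma adjusted p = 2.32e-05). Serpinb6b, another serpin, had a mean of -2.10 (limma adjusted p = 0.00572). Cst7, which encodes cystatin F, an inhibitor of the cathepsins that activate granzymes, had a mean of -1.62 (limma adjusted p = 0.00188). Stx11, a syntaxin needed for granule release, rose by 0.67 (limma adjusted p = 0.00189). Gzmb and its inhibitor Serpinb9 were thus both lower with TGF-b.

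Of 13 transcription factors of effector lymphocytes, 10 were tested, of which 4 were higher and 2 lower. Stat4, which relays IL-12 signals, fell by 1.50 (limma adjusted p = 2.29e-05). Runx1 rose by 1.21 (limma adjusted p = 0.000346), Id2 by 0.89 (limma adjusted p = 0.000393) and Irf4 by 0.40 (limma adjusted p = 0.00430). Tbx21, the other T-box factor of effector lymphocytes, had a mean of -0.16 (adjusted p = 0.767), and Runx3 of 0.05 (adjusted p = 0.854). The difference between the Eomes and Runx3 responses was not tested. Tbx21 was bright only in Smad3KO. In WT it read 55.7 without and 32.8 with TGF-b, and both Smad2KO signals were under the floor, so that log2 ratio stands at 0. A fall as large as that of Eomes could not show in WT or Smad2KO, and the 2 genes cannot be contrasted there.

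In the death receptor pathway 7 of 8 genes were tested, of which 2 were lower and 0 higher. Fas, the receptor of Fas ligand, was at -0.21 (limma adjusted p = 0.372). The lower ones were Bid, which links caspase-8 to mitochondria (-0.41, limma adjusted p = 0.0169), and Cflar, an inhibitor of caspase-8 (-0.37, limma adjusted p = 0.0294), and their other tested probe sets did not pass. Of 15 other chemokines and chemoattractants, 4 were tested and 2 were higher. These were Ccl1, a ligand of Ccr8 (1.59, limma adjusted p = 0.00156), and Il16, a chemoattractant that binds CD4 (0.68, limma adjusted p = 0.000905), whose other tested probe set did not pass. Of 7 effector cytokines, 5 were tested and 1 was higher, Lta (lymphotoxin alpha), from 1508 to 6821 in WT, from 1431 to 5180 in Smad2KO and from 1825 to 5237 in Smad3KO (mean 1.85, limma adjusted p = 2.94e-05). The median log2 response of the tested cytokines was -0.54. Il2 went from 5067 to 539 in WT, from 5537 to 1570 in Smad2KO and from 5329 to 1729 in Smad3KO. Its mean of -2.225 was not past the threshold (limma adjusted p = 0.123). Of 7 receptor and ligand genes of the members, Fas alone was tested. The background of 3.49% lower and 5.93% higher is over all tested probe sets, while the lists use 1 per gene. When the test was run with 1 probe set per gene, 534 of 9465 were lower and 677 higher. Against either background the counts of all these lists are over few genes.

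**Figure D4:**
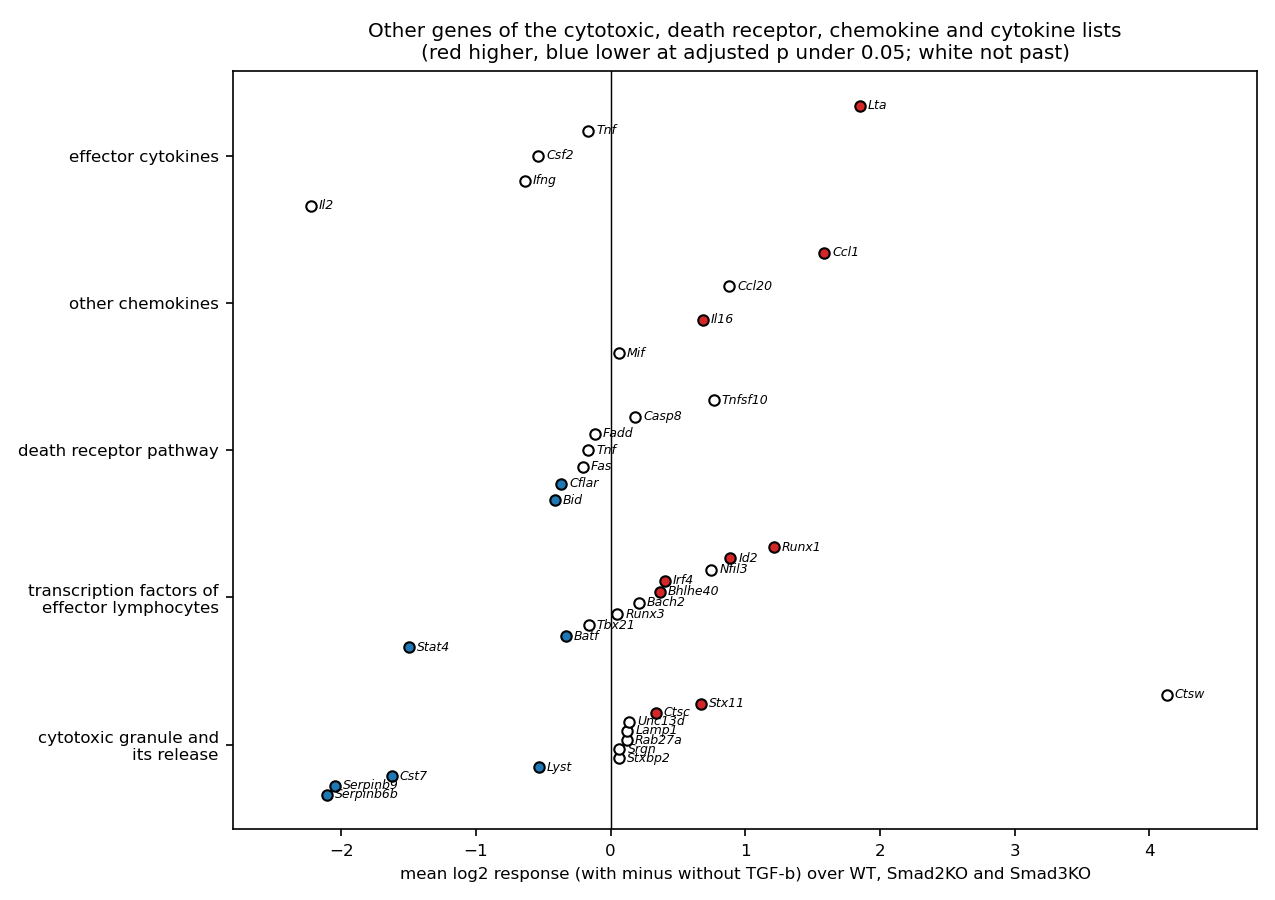
Mean log2 response to TGF-b over WT, Smad2KO and Smad3KO for the tested genes of the other lists, 1 probe set per gene, red higher and blue lower at a limma adjusted p under 0.05, white not past; vertical position within a list has no meaning. Serpinb9, Serpinb6b, Cst7 and Stat4 lie at -2.10 to -1.50 and Lta, Ccl1 and Runx1 at 1.21 to 1.85. The points for Ctsw, at 4.13, and Il2, at -2.225, are not past the threshold.

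The genes whose pattern over the 6 arrays was most like a member were taken by Pearson's r of the floored log2 signal among 3242 probe sets with a range of 1 or more. For Eomes (1426001_at) these were Ifitm1 (r = 0.999), Gzmb (0.997), Tespa1 (0.997), Plxnc1 (0.992) and St3gal5 (0.990). For Gzmb they were Eomes (0.997), Tespa1 (0.997), St3gal5 (0.996), Ifitm1 (0.994) and Plxnc1 (0.994). Both lists hold the same other 4 genes. For Xcl1 they were Nhlrc3 (0.989), Fbxl8 (0.975), Aftph (0.973), Lrrfip1 (0.968) and Mex3a (0.962), and none of these is among the 5 of Eomes or Gzmb. These values are descriptions over 6 arrays that fall into 2 treatments, which alone gives high correlations.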

How the data were processed

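The authors deposited probe set intensities on a linear scale. Per the submitters' processing notes they used GCOS 1.4, Affymetrix's array software, whose algorithm and scaling the sources used here do not give. Each array was scaled to a 2% trimmed mean of 254.092, the mean of the 6 WT, Smad2KO and Smad3KO arrays. Factors were 0.853 to 1.26 on these and 2.33 and 2.61 on the Smad2del/del Smad3+/- arrays. Signals under 32.5, the median of the 6, were set to it before log2. Probe sets reaching 65.0 on 1 of the 6 were tested with limma 3.58.1 in R 4.3.3 (trend and robust eBayes, genotype as block, 2 residual degrees of freedom), with Benjamini-Hochberg adjustment over all. Response differences used the 3 ratios. The scripts were tested on simulated data. Of 45101 probe sets, 64 were controls, 34945 had 1 symbol, 932 several (not named) and 9160 none, in a platform annotation that can be old.

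All probe sets of each member were used. For each other list, up to 4 genes past the threshold were named by smallest p; others were named after their values were seen. The members, lists and tests were chosen with earlier results of these data known. The number of arrays limits the precision. Alternatives covered normalization, floor, filter, block, arrays left out and 1 probe set per gene.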

Additional observations from a re-analysis of the deposited data

How the results depend on the processing

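All 10 tested member probe sets kept the sign of their mean response under every alternative run. The number called higher, 2, was 1 without the trend and robust settings, without the block, with the floor at the 25th percentile and with no filter, 0 with all 8 arrays, and 1 to 2 when the pair of arrays of 1 genotype was left out. The number called lower, 6, was 3 without the block, 0 with all 8 arrays and 4 to 6 with a pair left out. With the floor at the 25th percentile, 1 member was called higher in Smad2KO than in WT (Gzmb, 1.52, limma adjusted p = 0.0437) and 2 in Smad3KO, where none was in the report (Gzmb, and Crtam at an adjusted p of 0.0103), and 3 rather than 1 were 2-fold higher within Smad2KO. With the floor at 2 times the median, 3 rather than 5 were 2-fold lower in Smad2del/del Smad3+/-. Over all probe sets, the alternatives gave 19 to 1497 higher (1194 in the report) and 3 to 1122 lower (704) for the mean response, 3 to 194 higher (110) and 2 to 146 lower (83) for the Smad2KO level, and 0 to 124 higher (32) and 2 to 121 lower (43) for the Smad3KO level, while response differences gave 0 throughout. With all 8 arrays, 0 genes of the 6 other lists were called, and otherwise the granule list had 1 to 3 higher and 2 to 4 lower, the transcription factors 1 to 4 and 1 to 2, the death receptor list 0 to 2 lower, the other chemokines 0 to 3 higher, and the effector cytokines 1 higher and 0 to 1 lower. Bid and Cflar were not past the threshold without the trend and robust settings, without the WT or the Smad2KO pair, or with no filter, Cflar also without the block, and Ccl1 and Il16 without the trend and robust settings, Ccl1 also with no filter. The cause of these changes was not tested. The labels give no replicate numbers, and the pairing used is that of the 2 arrays of a genotype, which is the block. Dim signals limit Prf1 and Ccl5, of which no probe set passed under the alternatives that tested it, and signals under the floor limit Eomes and Gzmb to bounds.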

Other observations

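Ifng, which encodes the cytokine IFN-g and is often expressed with Eomes, and Tbx21 were looked at by genotype after their values were seen. The Ifng signal without and with TGF-b was 65.3 and 35.1 in WT, 45.4 and 33.9 in Smad2KO, and 271 and 180.0 in Smad3KO. Both Smad3KO arrays were above the other 4, and the level over both treatments was higher in Smad3KO than in WT, with a log2 difference of 2.21 (limma adjusted p = 0.00733, SE 0.271). In Smad2KO the difference from WT was -0.29 (limma adjusted p = 0.815). Tbx21 went from 55.7 to 32.8 in WT and from 114 to 138 in Smad3KO. In Smad2KO it read 29.8 without and 9.81 with TGF-b, both under the floor and so without order. Its Smad3KO difference from WT of 1.55 was not past the threshold (SE 0.353, limma adjusted p = 0.119). All cultures held an antibody to IFN-g. None of the 10 tested member probe sets was called between Smad3KO and WT. At an unadjusted limma p under 0.05 there were 3 of them, and 2076 of all 20149 probe sets.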
